A study of Mus musculus with 20 samples.

Results

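The step from day 3 to day 7 of embryoid body (EB) culture was examined by RNA-seq in 3 mouse induced pluripotent stem cell (iPSC) lines. It takes in 9 of the 20 libraries of the series: days 3, 5 and 7 of WT#1-4 (wild type), Nox4-/- #5-8 and Nox4-/- #5-23 (both without functional Nox4). Day 7 was compared with day 3 within each line, 3 libraries against 3, and the 3 libraries of day 5 show the path between. All lines come from embryonic fibroblasts of wild type or Nox4-/- mice that received retroviral vectors for the 4 reprogramming factors (Oct4, Sox2, c-Myc and Klf4). Each line grew from picked colonies and was kept on mitotically inactive fibroblast feeders with LIF. EBs were formed in hanging drops without LIF and then plated on gelatin. The protocol text lists a day 10 after plating where the titles give day 14, so it is not settled whether the days of the titles count from plating or from the hanging drops. A further wild type line, WT#20D-17, has 1 library on each of days 3, 5 and 7 and was used only as a separate check. With 1 library per line and day, the lines are the replicates. Line is a term of the main test. Its p-values set the mean change between days against how much the changes vary among these lines, noise of single libraries included. The day 5 libraries enter that spread, which the test also moderates across genes.

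When EBs leave the pluripotent state, rapidly cycling epiblast-like cells normally give rise to primitive streak, mesoderm, endoderm and ectoderm derivatives, and the cell cycle lengthens. As the aggregate grows and spreads, cells also build epithelia, lay down basement membrane and meet lower oxygen in the core. Nox4 is an NADPH oxidase that produces hydrogen peroxide and acts in growth factor signaling.

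Total counts of the 9 libraries lay between 20294935 and 26237551, so 3 counts, taken as the floor, correspond to at most 0.145 CPM (the library-size normalised count, scaled by the upper quartile of each library). The targeted gene, Nox4, was low even in wild type cells: the WT#1-4 libraries held 22, 21 and 12 counts of it in order of day. Nox4-/- #5-8 held 2, 0 and 1 and Nox4-/- #5-23 held 0 throughout, against 165, 188 and 203 in WT#20D-17. The labelled cell type was checked against its markers. In the 3 lines the pluripotency markers Zfp42, Dppa3, Dppa4, Prdm14 and Esrrb were at 0.211 CPM or less on days 0, 3, 5 and 7, and Nanog was at 1.04 CPM or less. On day 0, before EBs were formed, these 5 markers were at 0.0691 CPM or less and Nanog at 0.361 CPM or less. The lines thus lacked these defining markers of the labelled cell type from the start, but not every pluripotency gene. The 20 genes of the pluripotency list summed to between 329 and 423 CPM on day 3 in the 3 lines, against 1761.1 CPM in WT#20D-17. Nr0b1 of that list was at 44.2 CPM on day 0 in WT#1-4, 147 CPM in Nox4-/- #5-8 and 92.6 CPM in Nox4-/- #5-23, against 30.5 CPM in WT#20D-17. In WT#20D-17, Nanog was at 402 CPM on day 0 and 168 CPM on day 3. Pou5f1 was between 2907.5 and 3687.6 CPM in the 9 libraries, and reads from the vector carrying its coding sequence could count toward it. Reads shared with processed copies are divided by estimate, which makes the values of Krt8, Krt18, Eno1, Aldoa, Pgk1 and Ldha less certain.

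From day 3 to day 7, 5208 of 16291 genes tested changed (32.0%), of which 2842 rose (17.4%) and 2366 fell (14.5%), by edgeR's quasi-likelihood test with the line as a block and a Benjamini-Hochberg adjusted p under 0.05. The direction was the same in each of the 3 lines for 5170 of the 5208. The test favours genes whose change agrees across these same lines, so this is not separate support. The log2 fold change reached 1 or more for 953 genes that rose and -1 or less for 271 that fell, and its median over all genes tested was 0.05. Without the block on the line, 365 genes were called. With Nox4-/- #5-8 left out, 2044 genes were called, and with Nox4-/- #5-23 left out, 1808. With WT#1-4 left out, 6409 were called, and with only its day 5 library left out, 6414.

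The gene groups described here differ in how many members moved. Their counts are to be read beside the 17.4% of all genes tested that rose and the 14.5% that fell. Of 22 replication and mitosis genes, 22 fell. Of 15 epithelial genes tested, 11 rose and 0 fell. Of 15 endothelial genes 7 rose and 0 fell, and the same counts held for 16 immediate early genes. Of 20 glycolysis and hypoxia genes, 11 rose and 1 fell, and of 16 TGF-beta genes 8 rose and 1 fell. Among Hox genes 0 of 22 rose and 1 fell, and among interstitial matrix genes 2 of 26 rose and 1 fell. Without the block on the line, the members called over all the lists came to 8 replication and mitosis genes, which fell, and 1 gene among cell cycle inhibitors and p53 targets, which rose.

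**Figure D1:**
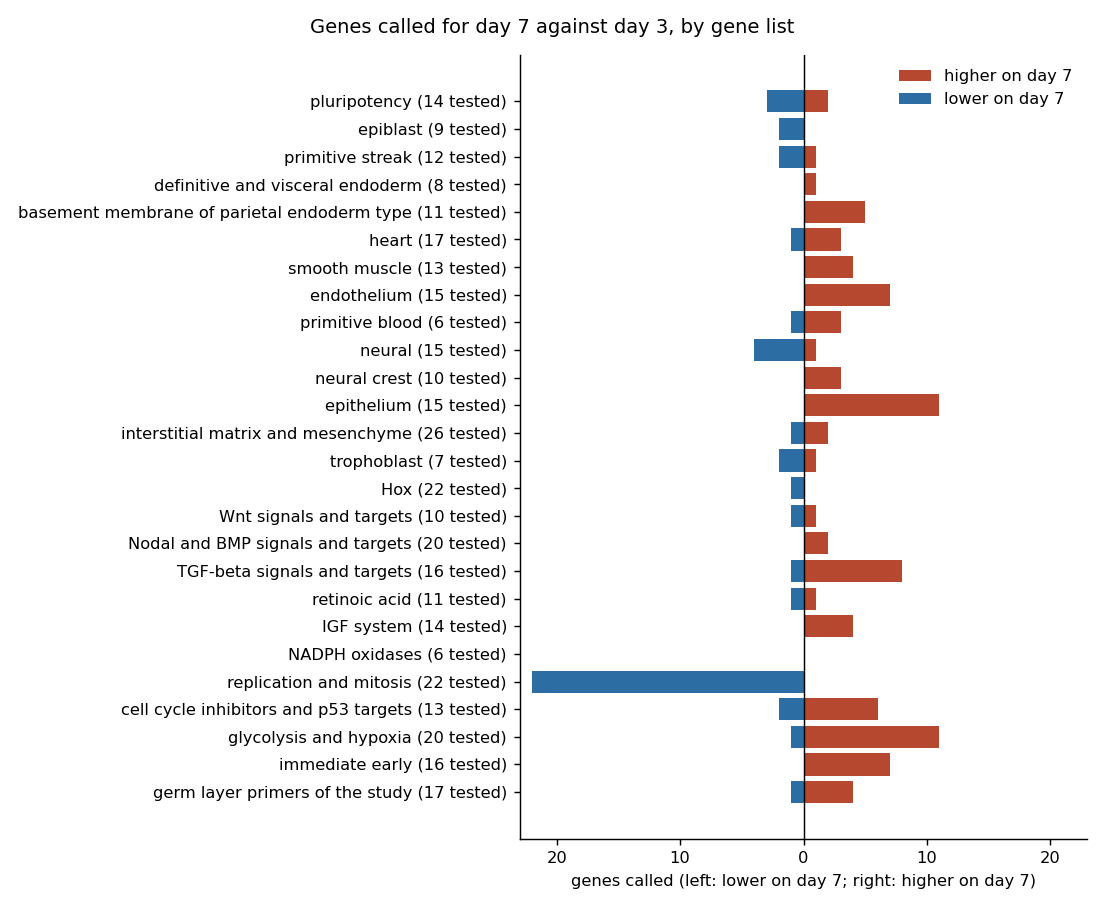
Number of genes called at an adjusted p under 0.05 for day 7 against day 3 in each of 26 gene lists, with genes that were lower on day 7 to the left of 0 and genes that were higher to the right. The 22 replication and mitosis genes reach furthest to the left, and the epithelial list and the glycolysis and hypoxia list reach 11 on the right.

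DNA replication genes fell in every line. The Mcm genes code for the helicase that opens replication origins, Pcna for the clamp of the replicative polymerases and Rrm2 for a subunit of ribonucleotide reductase, while Ccnb1, Aurka and Plk1 act in mitosis. The list's 22 members had a median log2 fold change of -0.86, beside 0.05 over all genes tested, and all 22 were below their day 3 level under each alternative fit. The number called was 18 without Nox4-/- #5-23, 20 without Nox4-/- #5-8, 22 without WT#1-4 and 8 without the block.

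The regulatory windows of a pair of these genes are shown because the 22 genes moved together. They are the 250 bases before the transcription start in RefSeq (GRCm38.p6), with capitals marking each CCAAT (the binding letters of NF-Y) and, in Mcm5, also TTTGGCGC (letters bound by E2F factors), on either strand. The Mcm5 window is chr8:75109259-75109508 on the plus strand and the Ccnb1 window is chr13:100786487-100786736 on the minus strand.
Mcm5: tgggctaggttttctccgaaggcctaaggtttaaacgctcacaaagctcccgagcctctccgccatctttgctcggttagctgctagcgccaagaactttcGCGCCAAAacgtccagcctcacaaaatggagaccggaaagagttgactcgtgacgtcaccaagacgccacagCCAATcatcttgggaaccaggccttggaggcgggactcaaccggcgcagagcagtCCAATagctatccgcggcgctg
Ccnb1: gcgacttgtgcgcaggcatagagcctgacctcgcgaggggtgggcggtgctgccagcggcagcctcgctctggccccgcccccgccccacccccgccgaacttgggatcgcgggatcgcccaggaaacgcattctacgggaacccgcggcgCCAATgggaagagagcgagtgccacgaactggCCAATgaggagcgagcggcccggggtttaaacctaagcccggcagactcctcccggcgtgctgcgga
RefSeq windows were found for 18 of the 22 genes, 19 windows in all. CCAAT stood in 16 of the 19 windows and in 33.85% of all 32851 windows of that length. TTTGGCGC stood in 2 (Mcm5 and Mcm6) against 0.417% of all windows, and TTTCCCGC in 1 (Mcm7) against 0.895%. All were searched on both strands, and none of these strings contains another. A match is a description of letters, not a measured binding site.

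Mcm5 (ENSMUSG00000005410, chromosome 8, 75109569 to 75128439) was at 275, 276 and 142 CPM on days 3, 5 and 7 in WT#1-4. It was at 267, 181 and 131 CPM in Nox4-/- #5-8 and at 226, 130 and 86.2 CPM in Nox4-/- #5-23. Every day 7 library was below every day 3 library, and the fall was 2.19-fold (log2 fold change -1.13 ± 0.14 (SE), adjusted p = 0.0011). On day 5, WT#1-4 was still at its day 3 level while both Nox4-/- lines had moved well toward day 7.

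Rrm2 (ENSMUSG00000020649, chromosome 12, 24708241 to 24714146) had the smallest adjusted p of the list. It was at 267, 226 and 119 CPM in WT#1-4, 368, 222 and 169 CPM in Nox4-/- #5-8 and 317, 169 and 116 CPM in Nox4-/- #5-23 (log2 fold change -1.25 ± 0.13 (SE), adjusted p = 0.00061). The day 3 and day 7 libraries did not overlap. Pcna was at 433, 417 and 215 CPM in WT#1-4, 467, 348 and 275 CPM in Nox4-/- #5-8 and 438, 293 and 212 CPM in Nox4-/- #5-23 (-0.94 ± 0.12, adjusted p = 0.0012). The mitotic kinase Aurka fell less, with a log2 fold change of -0.67 ± 0.08 (adjusted p = 0.00096), from 89.2 to 113 CPM on day 3 to 52.7 to 74.1 CPM on day 7. The other members of the list fell by 0.43 (Ccnb2) to 1.17 (Mybl2, a transcription factor of cycling cells) on the log2 scale.

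Genes of cell cycle arrest moved in both directions. Of 13 cell cycle inhibitors and p53 targets, 6 rose and 2 fell. Without Nox4-/- #5-8, and likewise without Nox4-/- #5-23, 2 rose and 0 fell by edgeR, and with WT#20D-17 added 0 rose and 1 fell. Gadd45a, a stress-induced growth arrest gene, was at 11.2, 6.94 and 45.1 CPM in WT#1-4, 9.33, 19.4 and 22.0 CPM in Nox4-/- #5-8 and 7.07, 15.5 and 20.7 CPM in Nox4-/- #5-23 (1.66 ± 0.45, adjusted p = 0.028). The lines ended at different levels, with the WT#1-4 library of day 7 above the others. The CDK inhibitors Cdkn2b (0.87 ± 0.19), Cdkn1b (0.83 ± 0.24) and Cdkn1a (0.40 ± 0.09) rose as well, as did the antiproliferative gene Btg2 (0.87 ± 0.15), with adjusted p of 0.0089, 0.035, 0.011 and 0.0031. The p53 targets Bax (-0.30 ± 0.09, adjusted p = 0.027) and Sesn2 (-0.43 ± 0.11, adjusted p = 0.014) fell. Cdkn2a, Mdm2 and Ccng1 did not pass the test, with log2 fold changes of 0.27, 0.11 and -0.01.

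Epithelial genes rose, and among all genes tested the smallest adjusted p belonged to Epcam, which codes for an adhesion molecule of epithelial and pluripotent cells. Epcam (ENSMUSG00000045394, chromosome 17, 87635979 to 87651129) was at 14.8, 26.4 and 54.0 CPM on days 3, 5 and 7 in WT#1-4. It was at 12.4, 19.6 and 38.8 CPM in Nox4-/- #5-8 and at 7.24, 13.1 and 27.0 CPM in Nox4-/- #5-23. The day 3 and day 7 libraries did not overlap, and the rise was 3.49-fold (log2 fold change 1.80 ± 0.11 (SE), adjusted p = 0.00026). Each line rose in both intervals.

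Keratins and junction proteins rose with it, from levels that differed widely between lines. Krt8, the keratin of simple epithelia, was at 19.4, 37.2 and 63.2 CPM in WT#1-4, 9.24, 32.9 and 42.4 CPM in Nox4-/- #5-8 and 0.349, 1.21 and 1.503 CPM in Nox4-/- #5-23 (1.93 ± 0.18, adjusted p = 0.00057). Its partner Krt18 rose in the fit (2.12 ± 0.38, adjusted p = 0.0035), but had 0, 1 and 0 counts in Nox4-/- #5-23 against 75, 232 and 355 in WT#1-4, so that its counts come from WT#1-4 and Nox4-/- #5-8. Krt19 was at 154, 136 and 553 CPM in WT#1-4, 97.2, 299 and 316 CPM in Nox4-/- #5-8 and 35.6, 136 and 175 CPM in Nox4-/- #5-23 (1.93 ± 0.40, adjusted p = 0.011). The groups of days 3 and 7 were separated for Krt19, unlike for Krt8. Occludin (Ocln), a tight junction protein, rose by 1.26 ± 0.17 (adjusted p = 0.0014), claudin Cldn4 by 1.75 ± 0.31 (adjusted p = 0.0037) and the epithelial splicing factor Esrp1 by 1.04 ± 0.17 (adjusted p = 0.0026). Cldn4 stayed under 0.6 CPM in both Nox4-/- lines.

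E-cadherin (Cdh1) rose and N-cadherin (Cdh2) fell. Cdh1 went from 51.7 to 105 CPM in WT#1-4, from 82.2 to 87.1 CPM in Nox4-/- #5-8 and from 30.3 to 56.9 CPM in Nox4-/- #5-23 (0.66 ± 0.17, adjusted p = 0.017). The groups overlap, and Nox4-/- #5-8 moved little. Cdh2 went from 18.7 to 8.06 CPM, from 40.0 to 13.1 CPM and from 28.9 to 13.2 CPM in the same lines (-1.33 ± 0.14, adjusted p = 0.00075), with no overlap of the days. The pair was set side by side after the values had been seen. Neither Grhl2 nor Trp63, regulators of epithelial cells, passed the test, and both stayed under 1 CPM in the 9 libraries. The list's median log2 fold change was 1.26. It had 11 members called, 6 without WT#1-4, 8 without Nox4-/- #5-8 and 7 without Nox4-/- #5-23.

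**Figure D2:**
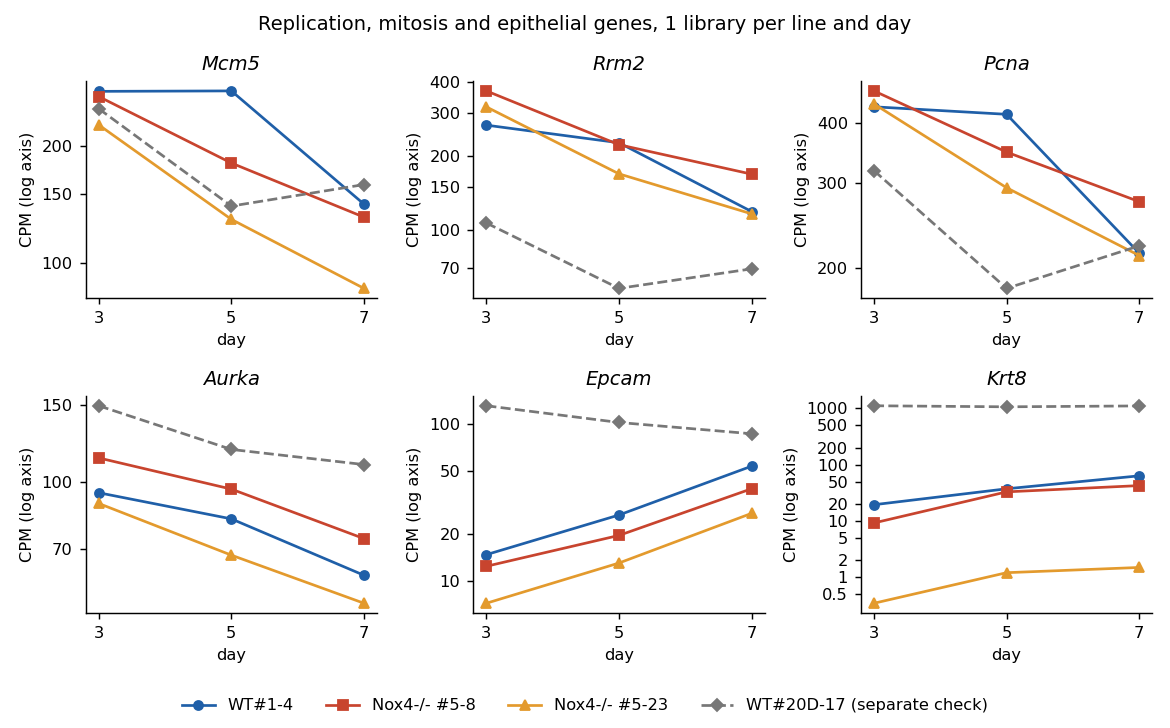
CPM (log axis) of 4 replication and mitosis genes and 2 epithelial genes on days 3, 5 and 7, with 1 point per library and 1 line per cell line. Mcm5 and Pcna in WT#1-4 stay level until day 5 and then fall, both Nox4-/- lines fall in each interval, and Epcam rises in each of the 3 lines while it declines in WT#20D-17.

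Several genes known to be induced at low oxygen rose by day 7. Egln3 codes for an oxygen-sensing prolyl hydroxylase, Ankrd37 and Bnip3 are targets of hypoxia-inducible factor, Vegfa is the main angiogenic growth factor and Slc2a1 is a glucose transporter. The windows before Ankrd37 (chr8:45999851-46000100, minus strand) and Egln3 (chr12:54203875-54204124, minus strand) are shown because these genes rose within the list. Capitals mark ACGTG, the core letters bound by hypoxia-inducible factor, on either strand.
Ankrd37: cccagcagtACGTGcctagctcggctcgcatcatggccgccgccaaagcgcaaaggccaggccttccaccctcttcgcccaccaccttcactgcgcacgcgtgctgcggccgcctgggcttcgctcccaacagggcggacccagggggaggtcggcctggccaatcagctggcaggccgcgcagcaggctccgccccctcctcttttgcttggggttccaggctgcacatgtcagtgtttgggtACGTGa
Egln3: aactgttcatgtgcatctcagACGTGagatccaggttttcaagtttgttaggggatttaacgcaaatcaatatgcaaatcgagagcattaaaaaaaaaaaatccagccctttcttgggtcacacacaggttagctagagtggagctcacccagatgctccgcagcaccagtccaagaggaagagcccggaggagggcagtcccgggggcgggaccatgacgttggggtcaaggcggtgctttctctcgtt
ACGTG stood in 12 of 29 windows of 19 matched genes of this list and in 16.57% of all windows. It stood in 7 of the 19 windows of the replication and mitosis genes. The letters are also part of CACGTG, which other factors bind.

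Vegfa (ENSMUSG00000023951, chromosome 17, 46016993 to 46032369) was at 106, 92.6 and 386 CPM in WT#1-4, 41.4, 86.0 and 107 CPM in Nox4-/- #5-8 and 21.0, 59.7 and 80.3 CPM in Nox4-/- #5-23 (1.73 ± 0.34, adjusted p = 0.0096). The libraries of days 3 and 7 overlap across lines, although each line was higher on day 7 than on day 3. Egln3 was at 156, 158 and 464 CPM in WT#1-4, 98.2, 319 and 271 CPM in Nox4-/- #5-8 and 41.6, 178 and 204 CPM in Nox4-/- #5-23 (1.75 ± 0.38, adjusted p = 0.013). In both Nox4-/- lines most of the difference was present on day 5, when WT#1-4 was still at its day 3 level. Ankrd37 was at 65.4, 90.5 and 99.6 CPM in WT#1-4, 31.5, 115 and 94.2 CPM in Nox4-/- #5-8 and 29.2, 107 and 115 CPM in Nox4-/- #5-23 (1.34 ± 0.29, adjusted p = 0.013). Bnip3 rose by 1.05 ± 0.27, Slc2a1 by 1.02 ± 0.32 and Adm, which codes for adrenomedullin, by 2.53 ± 0.66 on the log2 scale, with adjusted p of 0.024, 0.045 and 0.025.

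Glycolytic enzymes did not move as a block. Hk1 (0.62 ± 0.11, adjusted p = 0.0035), Gpi1 (0.67 ± 0.17, adjusted p = 0.019), Pfkp (0.67 ± 0.17, adjusted p = 0.017), Aldoa (0.61 ± 0.18, adjusted p = 0.034) and the brain-type aldolase Aldoc (1.16 ± 0.25, adjusted p = 0.012) rose. Eno1 fell by 0.32 (SE 0.08, adjusted p = 0.017), from between 2912.0 and 3061.9 CPM to between 2208.8 and 2608.7 CPM. Hk2, Pfkl, Pkm and Ldha, with log2 fold changes of 0.12, -0.06, 0.08 and 0.06, did not pass. The list had 11 members called higher, 14 without WT#1-4, 3 without Nox4-/- #5-8 and 0 without Nox4-/- #5-23, while its median log2 fold change, 0.65 with all 3 lines, was between 0.59 and 0.70 in those fits and 0.33 with WT#20D-17 added.

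Of the immediate early genes, many of which code for transcription factors and which are induced by growth factors, serum or stress, 7 of 16 rose, with a list median of 0.83. Fos (ENSMUSG00000021250, chromosome 12, 85473890 to 85477273) was at 26.2, 21.9 and 96.4 CPM in WT#1-4, 15.3, 45.5 and 48.0 CPM in Nox4-/- #5-8 and 13.8, 34.9 and 44.4 CPM in Nox4-/- #5-23 (1.75 ± 0.38, adjusted p = 0.013). The day 3 and day 7 libraries of Fos did not overlap. Junb (0.82 ± 0.14, adjusted p = 0.0030), Egr1 (1.301 ± 0.25, adjusted p = 0.0061), Ier3 (1.59 ± 0.30, adjusted p = 0.0075) and Zfp36 (0.83 ± 0.19, adjusted p = 0.011), which codes for a protein that destabilizes cytokine mRNA, rose as well. Jun, with 0.01, and Ier2, with 0.11, did not pass. Klf4 and Myc, which the vectors also carry, had log2 fold changes of 0.16 and 0.04. With WT#1-4 left out 7 members were called, with Nox4-/- #5-8 left out 4 and with Nox4-/- #5-23 left out 3.

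**Figure D3:**
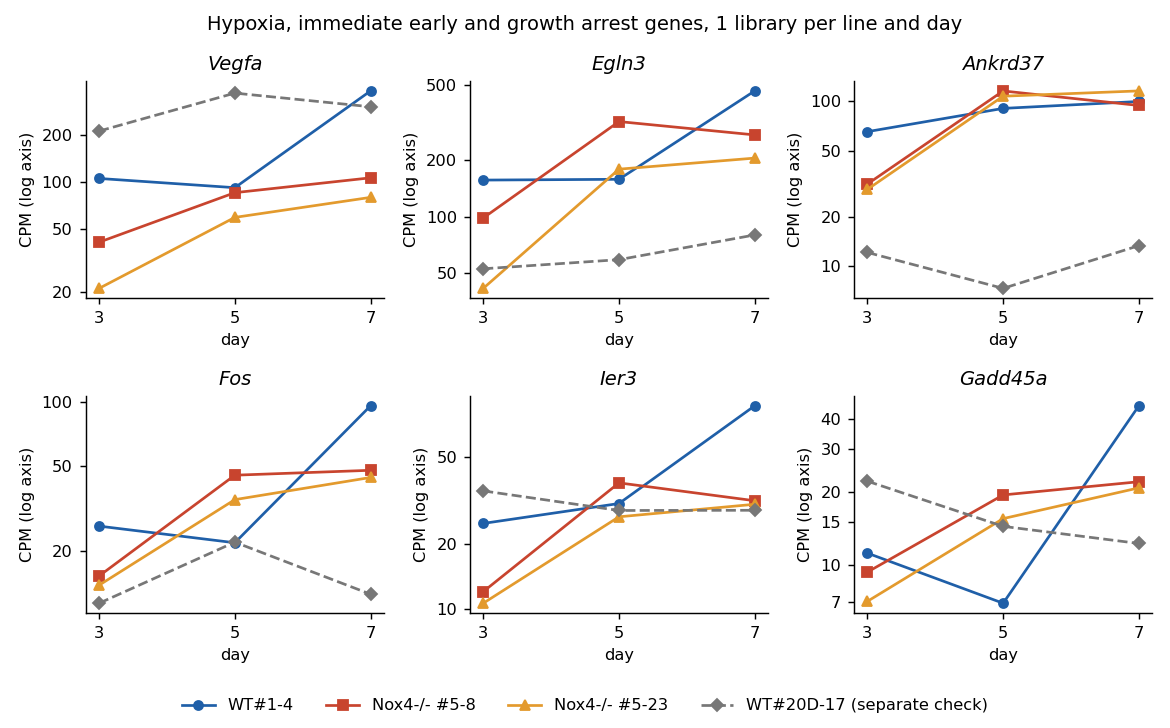
CPM (log axis) of Vegfa, Egln3, Ankrd37, Fos, Ier3 and Gadd45a on days 3, 5 and 7, with 1 point per library and 1 line per cell line. Both Nox4-/- lines make most of their rise by day 5, while Vegfa, Egln3, Fos and Gadd45a in WT#1-4 are on day 5 near or below their day 3 level and rise by day 7.

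Growth factor genes rose in part. TGF-beta ligands signal through type I and type II receptors and are held in the matrix by latent binding proteins. The ligand Tgfb1 was at 2.76, 2.39 and 9.57 CPM in WT#1-4, 1.35, 2.05 and 2.52 CPM in Nox4-/- #5-8 and 0.393, 0.736 and 1.46 CPM in Nox4-/- #5-23 (1.52 ± 0.34, adjusted p = 0.0093). Every library was under 10 CPM. Tgfb3 (1.07 ± 0.29, adjusted p = 0.023), the latent binding protein gene Ltbp3 (1.22 ± 0.15, adjusted p = 0.00099) and the type II receptor Tgfbr2 (0.72 ± 0.10, adjusted p = 0.0015) rose, while the type I receptor Tgfbr1 fell (-0.36 ± 0.11, adjusted p = 0.033). Tgfb2, at 0.24, did not pass. Among target genes Ccn2 (0.85 ± 0.20) and Ccn1 (1.09 ± 0.31), matricellular proteins, and Skil (0.49 ± 0.13), a repressor of SMAD signaling, rose, with adjusted p of 0.012, 0.033 and 0.021. Bmp4 (0.76 ± 0.18, adjusted p = 0.011) and the BMP target Id1 (0.45 ± 0.11, adjusted p = 0.013) were the 2 of 20 Nodal and BMP genes that rose, beside 17.4% of all genes tested. Of TGF-beta genes 8 were called higher with all lines, 5 without WT#1-4, 5 without Nox4-/- #5-8 and 2 without Nox4-/- #5-23.

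In the insulin-like growth factor system 4 of 14 genes rose, beside 17.4% of all genes tested. The number was 1 without Nox4-/- #5-23 and 1 with all 5 days in the fit, and DESeq2 also called 2 members lower. Igf2 (ENSMUSG00000048583, chromosome 7, 142650766 to 142666816), a fetal growth factor, was at 10.7, 23.1 and 55.8 CPM in WT#1-4, 2.57, 2.82 and 3.54 CPM in Nox4-/- #5-8 and 1.26, 3.24 and 3.76 CPM in Nox4-/- #5-23 (1.59 ± 0.34, adjusted p = 0.0084). Each line rose, and WT#1-4 was above both Nox4-/- lines on each day. The difference in the day 3 to day 7 change between genotypes did not pass for Igf2 (adjusted p = 0.15). It passed for 3 of the 14 genes, each with an adjusted p of 0.041, beside 0.645% of all genes: the imprinted transcript H19 (-1.67), the receptor Igf2r (-0.65), which clears Igf2, and the RNA-binding protein gene Igf2bp2 (1.03), as log2 change in Nox4-/- cells minus that in WT#1-4. H19 was at 93.1, 130 and 230 CPM in WT#1-4, 20.9, 19.5 and 18.2 CPM in Nox4-/- #5-8 and 1.96, 1.54 and 0.751 CPM in Nox4-/- #5-23. From day 5 to day 7 alone, 4 genes of the list had a lower change in Nox4-/- cells, H19, Igf2r, Insr and Igfbp2. The binding protein Igfbp3 was at 198, 280 and 443 CPM in WT#1-4, 306, 500 and 585 CPM in Nox4-/- #5-8 and 170, 376 and 615 CPM in Nox4-/- #5-23 (1.31 ± 0.16, adjusted p = 0.0013). The receptor genes Igf1r (0.54 ± 0.12, adjusted p = 0.0092) and Insr (0.46 ± 0.12, adjusted p = 0.015) rose as well. Of the NADPH oxidase genes 6 of 14 were tested and 0 were called by edgeR (2 at an unadjusted p under 0.05), while DESeq2 called 1 lower.

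Matrix, vascular and muscle genes moved in small subsets. Of 11 basement membrane genes 5 rose, among them Sparc (0.84 ± 0.17, adjusted p = 0.0074), Hspg2 (0.39 ± 0.09, adjusted p = 0.012) and the laminin chain Lamb1 (0.60 ± 0.16, adjusted p = 0.022). Fibronectin (Fn1) went from 1588.1 to 2526.3 CPM in WT#1-4, from 1314.5 to 1871.1 CPM in Nox4-/- #5-8 and from 1398.4 to 2841.8 CPM in Nox4-/- #5-23 (0.73 ± 0.11, adjusted p = 0.0022), with no overlap. Fn1 belongs to the interstitial matrix list, in which only 2 of 26 genes tested rose and 1 fell. Among 15 endothelial genes 7 rose, including the angiopoietin receptor Tek (0.38 ± 0.09, adjusted p = 0.014), VE-cadherin (Cdh5, 1.17 ± 0.25, adjusted p = 0.0073) and the VEGF receptor Kdr (1.90 ± 0.55, adjusted p = 0.025). Kdr was at 2.96 CPM or less in the 9 libraries, and the endothelial regulators Etv2, Fli1 and Sox7 were at 0.35 CPM or less. The number of endothelial genes called was 3 without WT#1-4, 5 without Nox4-/- #5-8, 4 without Nox4-/- #5-23 and 0 with all 5 days in the fit. Of 13 smooth muscle genes 4 rose, Csrp1 (0.91 ± 0.16), Des (0.95 ± 0.17), Cald1 (0.43 ± 0.09) and Actg2 (1.00 ± 0.27), with adjusted p of 0.0035, 0.0048, 0.0067 and 0.021. With 1 line left out, in the order WT#1-4, Nox4-/- #5-8 and Nox4-/- #5-23, 8, 2 and 2 basement membrane genes and 7, 2 and 2 smooth muscle genes were called. With all 5 days in the fit, and likewise without the block, 0 genes of either list were called. The counts of these lists stand beside 17.4% of all genes tested that rose. In bulk samples, fewer cells of a type and less RNA per cell cannot be told apart.

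Endoderm markers were low on both days. They summed to between 28.3 and 63.1 CPM on day 3 and between 50.2 and 102 CPM on day 7 in the 3 lines, against 2448.6 and 7009.2 CPM in WT#20D-17. Of 24 such markers 8 were tested, and the adaptor gene Dab2 alone was called (0.81 ± 0.26, adjusted p = 0.0496). Sox17 was at 0.545 CPM or less, Foxa2 at 0.0844 CPM or less and Afp at 0.0485 CPM or less in the 9 libraries. In the neural list 4 of 15 genes fell and 1 rose, beside 14.5% and 17.4% of all genes tested. The neural progenitor genes Sox11 (-0.75 ± 0.10, adjusted p = 0.0014) and Nes (-0.75 ± 0.11, adjusted p = 0.0016) and the neuronal gene Stmn2 (-0.44 ± 0.09, adjusted p = 0.0051) fell, as did Nefl (-1.69 ± 0.54, adjusted p = 0.038), which was at 3.29 CPM or less, while Map2 rose (0.60 ± 0.17, adjusted p = 0.024). In the neural crest list 3 of 10 genes tested rose and 0 fell. The 3 were Pax7 (1.44 ± 0.17, adjusted p = 0.00091), Erbb3 (1.53 ± 0.25, adjusted p = 0.0036) and Ngfr (0.62 ± 0.16, adjusted p = 0.017).

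Blood, heart and streak genes that changed were mostly at a few CPM. Of 6 primitive blood genes 3 rose, among them the hematopoietic regulator Runx1 (0.65 ± 0.19, adjusted p = 0.030), which went from 22.0 to 32.9 CPM in WT#1-4, from 5.70 to 6.55 CPM in Nox4-/- #5-8 and from 25.7 to 54.8 CPM in Nox4-/- #5-23. The embryonic globin gene Hbb-y fell (-1.47 ± 0.41, adjusted p = 0.023), from 8.28 to 3.00 CPM in WT#1-4, and was under 1 CPM in both Nox4-/- lines. With WT#20D-17 added its log2 fold change turned to 0.60 (adjusted p = 0.80). Of 17 heart genes Myocd (1.67 ± 0.38, adjusted p = 0.011), Tnni3 (1.16 ± 0.28, adjusted p = 0.012) and Nppb (1.63 ± 0.43, adjusted p = 0.018) rose and the sarcomere gene Actn2 fell (-0.72 ± 0.18, adjusted p = 0.016). These 3 of 17 are near the 17.4% of all genes that rose. In the primitive streak list 1 of 12 rose and 2 fell, in the trophoblast list 1 of 7 rose and 2 fell, and in the Wnt list 1 of 10 rose and 1 fell. These small counts stand beside 17.4% of all genes that rose and 14.5% that fell. Of those called in these 3 lists, the imprinted gene Peg10 alone passed 10 CPM. Of 11 retinoic acid genes Aldh1a2, which makes retinoic acid, fell (-1.91 ± 0.47, adjusted p = 0.013), at 1.98 CPM or less, and Dhrs3, a retinal reductase, rose (1.77 ± 0.18, adjusted p = 0.00069), from between 8.69 and 17.7 CPM on day 3 to between 29.5 and 69.6 CPM on day 7.

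The RT-PCR primers of the study cover germ layer markers and Igf2, which was taken up from these RNA-seq data and is not independent evidence. Of these 22 genes 17 were tested, of which 4 rose, Igf2 among them, and 1 fell. Over all genes tested, 17.4% rose and 14.5% fell. Beside Igf2, Kdr, Map2 and Nes, the claudin gene Cldn5 was called (0.90 ± 0.21, adjusted p = 0.012), at 36.0, 53.2 and 71.8 CPM in WT#1-4 and at 1.10 CPM or less in both Nox4-/- lines. Its counts come almost entirely from WT#1-4. Eomes, T, Hand1, Snai1, Snai2, Pdgfra, Gata4, Gata6, Otx2, Pax3, Zic1 and Klf5 did not pass, with adjusted p between 0.052 and 0.61.

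The pluripotency list had 3 members that fell and 2 that rose among 14 tested, beside 14.5% and 17.4% of all genes tested. Nr0b1, a nuclear receptor of the pluripotency network, was at 41.8, 54.0 and 7.67 CPM in WT#1-4, 46.2, 23.7 and 16.0 CPM in Nox4-/- #5-8 and 65.2, 30.8 and 24.7 CPM in Nox4-/- #5-23 (-1.69 ± 0.43, adjusted p = 0.023). The days did not overlap. Gdf3 (-0.86 ± 0.22) and Sall4 (-0.44 ± 0.12) fell, both with an adjusted p of 0.017, and Fbxo15 (0.71 ± 0.11, adjusted p = 0.0022) and Tfcp2l1 (1.297 ± 0.29, adjusted p = 0.0087) rose. Of the epiblast genes Pou3f1 (-1.28 ± 0.30, adjusted p = 0.012) and the DNA methyltransferase Dnmt3b (-0.84 ± 0.24, adjusted p = 0.024) fell.

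The 12 largest rises among genes with at least 5 CPM had log2 fold changes between 2.59 and 3.29. Col17a1, a hemidesmosome collagen, was at 2.88, 7.49 and 23.8 CPM in WT#1-4, 2.24, 10.5 and 24.2 CPM in Nox4-/- #5-8 and 0.698, 3.79 and 8.35 CPM in Nox4-/- #5-23 (log2 fold change 3.29 ± 0.22, adjusted p = 0.00030). The epithelial sodium channel subunit Scnn1a (3.08 ± 0.30), the apical polarity gene Crb3 (2.63 ± 0.29) and the calcium-binding protein gene S100a14 (2.67 ± 0.34) rose as well, with adjusted p of 0.00060, 0.00084 and 0.0012. The potassium channel gene Kcnj5, the lipoxygenase Alox15, the stress gene Nupr1, the cell cycle regulator Rgcc, the matrix gene Prelp, Apol7a, March4 and Ighm complete the 12. S100a14 stayed at 0.53 CPM or less in Nox4-/- #5-23.

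Among the largest falls, the receptor gene Gpr83 was at 10.8, 9.11 and 4.67 CPM in WT#1-4, 13.1, 3.09 and 0.970 CPM in Nox4-/- #5-8 and 5.76, 1.66 and 0.442 CPM in Nox4-/- #5-23 (-2.74 ± 0.47, adjusted p = 0.0039). It was lower on day 7 than on day 3 in each line. The transcription factor Msc fell by 2.59 ± 0.44 on the log2 scale (adjusted p = 0.0058). Nr0b1, the lipid transporter Mfsd2a, R3hdml, Tshz2, the E2F family member E2f8, the protocadherin Pcdh18, Crmp1, the netrin receptor Unc5c and the replication licensing gene Cdc6 fell by 1.38 to 1.69 on the log2 scale.

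The path between the days differed by line, and the WT#1-4 path rests on its 1 library of day 5. That library was nearer to day 3 than in the other lines. The median chi-square of counts between days 3 and 5 (genes with at least 100 counts) was 2.65 in WT#1-4. It was 8.46 in Nox4-/- #5-8, 10.2 in Nox4-/- #5-23 and 18.3 in WT#20D-17, where counting error alone gives 0.455. The cause was not tested. For the 2842 genes that rose, the median log2 change from day 3 to day 5 was 0.08 in WT#1-4, 0.46 in Nox4-/- #5-8 and 0.47 in Nox4-/- #5-23, and from day 5 to day 7 it was 0.58, 0.22 and 0.28. For the 2366 genes that fell, it was -0.03, -0.31 and -0.35 in the first interval and -0.52, -0.18 and -0.22 in the second. By day 5, 14.4% of the 5208 genes had passed the midpoint of their own change in WT#1-4, against 70.7% in Nox4-/- #5-8 and 68.4% in Nox4-/- #5-23. In the other wild type line, WT#20D-17, the same measure gave 64.6%. It was taken along the direction of the 3 lines, which 66.6% of these genes shared in WT#20D-17, so it is not comparable. The median log2 change of WT#20D-17 from day 3 to day 5 was 0.15 for the 2842 genes and -0.33 for the 2366. Over the whole step it was 0.15 and -0.29. Among 11010 genes with at least 5 CPM, 34 were higher and 27 lower by 2-fold or more on day 5 than on day 3 in WT#1-4. These numbers were 231 and 34 in Nox4-/- #5-8 and 387 and 31 in Nox4-/- #5-23, and 302 and 340 in WT#20D-17.

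**Figure D4:**
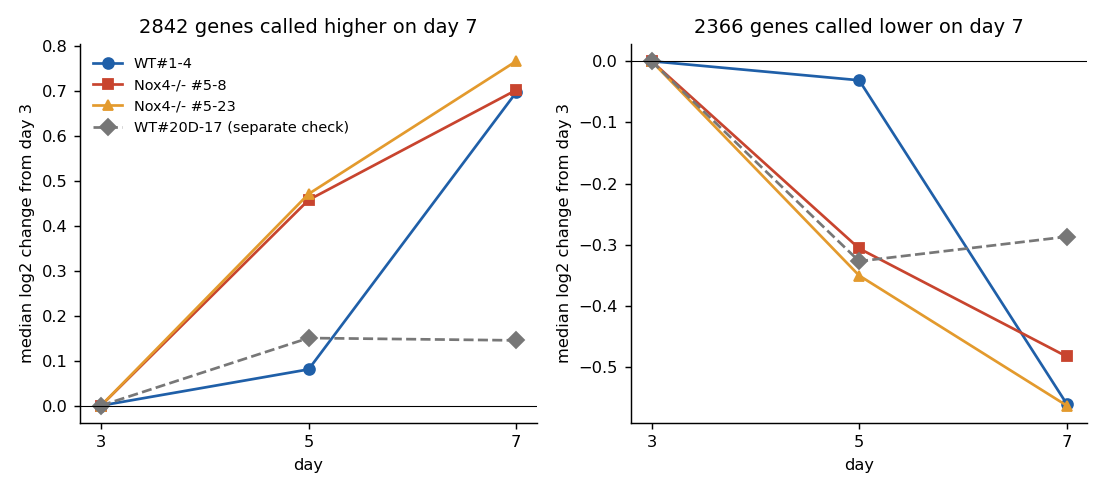
Median log2 change from day 3 of the genes called higher (left) and lower (right) on day 7, by day, with 1 line per cell line. WT#1-4 is near 0 on day 5 and meets both Nox4-/- lines on day 7, and WT#20D-17 stays nearer to 0 on day 7.

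Across the 3 lines, 6 genes were called between days 3 and 5 (0.0368%), all of them higher: Col17a1, Krt8, Pax7, the calcium-binding protein gene S100a6, the annexin Anxa3 and Cdkl2. Between days 5 and 7, 44 were called (0.270%), 27 higher and 17 lower, Epcam and Cdh2 among them. These counts depend on the test and on WT#1-4. DESeq2 called 674 and 1351 genes, and with WT#1-4 left out edgeR called 3861 of 15855 for the first interval (24.4%) and 360 for the second (2.27%). In that fit of both Nox4-/- lines, 20 of 22 replication and mitosis genes fell and 17 glycolysis and hypoxia genes rose from day 3 to day 5, and 8 and 0 from day 5 to day 7. Without the day 5 library of WT#1-4 alone, 2347 genes were called for the first interval and 15 for the second.

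The difference between genotypes was tested for each interval, although it sets 1 wild type line against 2 Nox4-/- lines with 2 residual degrees of freedom. The fit passes exactly through the 3 libraries of WT#1-4, so the spread comes only from both Nox4-/- lines, and the wild type arm is assumed to vary like them. The change from day 3 to day 5 differed for 559 genes (3.43%), with 359 higher and 200 lower in Nox4-/- cells, and that from day 5 to day 7 for 1581 (9.70%), with 740 higher and 841 lower. The day 5 library of WT#1-4 enters both. Over the whole step 105 genes differed (0.645%). Of 20 glycolysis and hypoxia genes, 11 had a higher change in Nox4-/- cells in the first interval and 12 a lower one in the second. Bnip3 was at 229, 195 and 436 CPM in WT#1-4, 110, 259 and 255 CPM in Nox4-/- #5-8 and 143, 308 and 297 CPM in Nox4-/- #5-23, with a difference of 1.40 in the first interval and -1.20 in the second (adjusted p = 0.0024 for each). Fos differed by 1.72 (adjusted p = 0.0045) and by -1.93 (adjusted p = 0.0014). Among replication and mitosis genes, Mcm2, Mcm3, Mcm5 and Mybl2 fell more in Nox4-/- cells in the first interval, by 0.69 to 0.79 on the log2 scale. When WT#20D-17 was added as a second wild type line, 0 genes were called by edgeR for either interval or for the whole step, with 1258, 424 and 1123 at an unadjusted p under 0.05. The differences were not shown for the genotype, and line and genotype cannot be told apart.

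**Figure D5:**
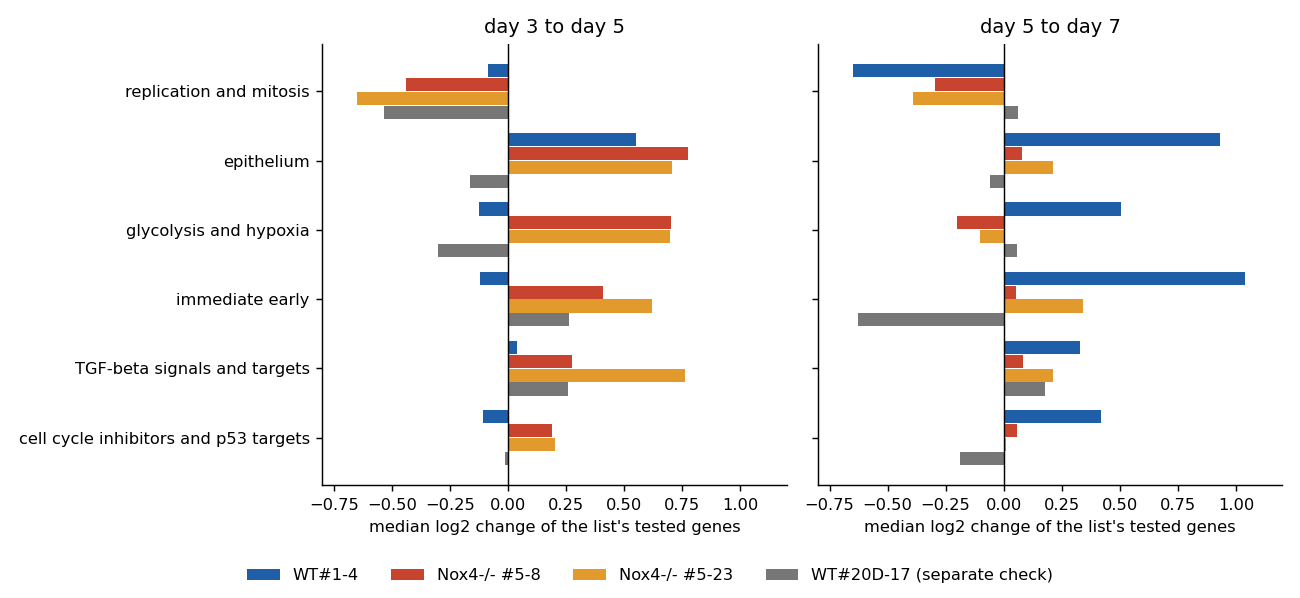
Median log2 change of the tested genes of 6 lists from day 3 to day 5 (left) and from day 5 to day 7 (right), with 1 bar per cell line. Glycolysis and hypoxia genes are at 0.70 in both Nox4-/- lines and at -0.12 in WT#1-4 in the first interval, and at -0.20, -0.10 and 0.51 in the second.

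Among called genes with at least 5 CPM, the 6 whose mean log2 level over the lines left the range of days 3 and 7 by the most on day 5 were Svep1, Cbx7, Lypd1, Ptprm, Dubr and Hist2h2aa2. The extracellular matrix gene Svep1 was at 18.0, 40.2 and 25.5 CPM in WT#1-4, 0.785, 3.38 and 2.17 CPM in Nox4-/- #5-23 and under 0.4 CPM in Nox4-/- #5-8. The GPI-anchored protein gene Lypd1 was at 42.6, 50.4 and 36.7 CPM in WT#1-4, 18.4, 19.7 and 9.46 CPM in Nox4-/- #5-8 and 9.29, 16.2 and 5.30 CPM in Nox4-/- #5-23. Both were highest on day 5 in each line. Cbx7, a Polycomb gene, was at 27.3, 26.0 and 57.9 CPM in WT#1-4 and at 0.68 CPM or less in both Nox4-/- lines, with 2 counts on day 5 in Nox4-/- #5-8, under the floor of 3.

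WT#20D-17 shared the direction of the genes that fell more often than that of the genes that rose. Of the 2366 genes that fell, 76.2% were lower on day 7 than on day 3 in this line, and of the 2842 that rose, 58.7% were higher. Over all 5208 the share in the same direction was 66.6%, beside 53.8% of the 11083 genes not called. Of 22 replication and mitosis genes 21 were lower on day 7, with a median of -0.58, and Mcm5 was at 249, 140 and 159 CPM. Epithelial genes were at far higher levels and did not move together, with 7 higher and 8 lower and a median of -0.01. Epcam was at 131, 103 and 86.9 CPM and Krt8 at 1102.6, 1056.7 and 1096.1 CPM. Glycolysis and hypoxia genes had a median of -0.24, with 7 higher and 13 lower. Interstitial matrix genes, which had a median of 0.16 in the 3 lines, had a median of 2.06 in WT#20D-17, and Hox genes 0.01 and 1.60. Igf2 went from 531 to 4647.3 CPM. This line has 1 library per day, so its values carry no replicate check. Across the 11010 genes with at least 5 CPM, the day 3 to day 7 changes correlated at r = 0.72 and 0.71 between WT#1-4 and each Nox4-/- line, at 0.82 between the Nox4-/- lines, and at 0.17 to 0.25 with WT#20D-17. These values are across genes, which are not independent, and are given as a description.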

How the data were processed

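RNA of 20 EB libraries was measured, and 9 libraries of 3 lines (days 3, 5 and 7) were compared here, with WT#20D-17 as a check. The authors made stranded TruSeq libraries, trimmed paired-end reads, mapped them to mm10 with STAR 2.6.0c and deposited RSEM 1.3.1 expected counts per gene without normalization, 1 table for all samples. Whether RSEM used the strand is not given in the sources used here, so reads of overlapping antisense genes may be mixed. The authors' other values were not used.

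Expected counts were rounded to whole numbers and analysed with R 4.3.3 and edgeR 4.0.16: upper quartile normalization, filterByExpr with day as the group, and the quasi-likelihood test (robust) with line and day as terms, Benjamini-Hochberg adjusted over 16291 genes, threshold 0.05. EBSeq-HMM, which the study used for time courses, was not run. The terms of genotype differences were line, day and day by genotype. DESeq2 1.42.0 was an alternative. Lines pair the days because the libraries of a line come from the same iPSC line: deviations from the day means correlated at 0.84 to 0.88 between days 3 and 7 of a line. CPM used upper quartile factors over the tested genes, and log2 values of single libraries a prior count of 2. The SE beside a log2 fold change was derived from the test. It is the absolute log2 fold change divided by the square root of the F statistic. A fold change of a gene near 0 counts understates or overstates its true size. Symbols came from a gene name table (55394 of 55573 identifiers), coordinates from GENCODE for GRCm38 and promoter windows from RefSeq (GRCm38.p6). Scripts were tested on simulated counts.

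Named genes were, by rule, the 12 largest rises and falls (adjusted p under 0.05, at least 5 CPM, same direction in the 3 lines, no clone names), up to 6 called genes per list with the smallest adjusted p, the RT-PCR genes of the study, up to 10 genes that differed between genotypes, Nox4 and Igf2, and up to 6 genes with day 5 outside the day 3 to day 7 range. Other list members, Cdh1 with Cdh2, and Pou5f1 were named after their values were seen. Of the genes these rules chose, 2 are not reported here. The step, the lists and the tests were chosen with earlier results of these data known. Alternatives covered normalization, filter, test, threshold, block, lines and days. The depth, at least 20294935 counts per library, sets the floor of 3 counts at 0.145 CPM or less, and such floors cover counting error only.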

Additional observations from a re-analysis of the deposited data

Results flagged for a closer look

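The following values were singled out because a test of the difference between genotypes passed its threshold. The change from day 3 to day 7 differed between Nox4-/- cells and WT#1-4 for 105 genes, that from day 3 to day 5 for 559 and that from day 5 to day 7 for 1581. The tests of the 2 intervals were added after the data had been seen. Since 1 wild type line carries the contrast, line and genotype cannot be told apart, and no gene was called once WT#20D-17 was added as a second wild type line.

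The 9 genes given here were among those with the smallest adjusted p for the whole step and at least 5 CPM, each value being the log2 change in Nox4-/- cells minus that in WT#1-4, with an adjusted p between 0.0073 and 0.013. The glutathione transferase Gsta4 differed by 2.14, going from 103 to 36.9 CPM in WT#1-4, from 135 to 197 CPM in Nox4-/- #5-8 and from 203 to 348 CPM in Nox4-/- #5-23. The acute phase gene Serpina3n differed by 3.92, and was under 2.6 CPM in WT#1-4. The desaturase Scd1, an enzyme of lipid synthesis, differed by -1.68. It went from 265 to 421 CPM in WT#1-4, from 315 to 178 CPM in Nox4-/- #5-8 and from 155 to 66.6 CPM in Nox4-/- #5-23, higher on day 7 in WT#1-4 and lower in both Nox4-/- lines.

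Sox2 differed by 1.94, going from 16.97 to 4.44 CPM in WT#1-4 while it was between 84.1 and 185 CPM in the libraries of both Nox4-/- lines; reads of the vector could count toward it. The proteoglycan Srgn differed by 1.93, the retinoic acid binding protein Crabp1 by 1.41, the carbonic anhydrase Car2 by -1.39 and the Arf regulator Agap1 by -1.46. Rps2-ps10, a processed copy of the ribosomal protein gene Rps2, differed by -1.31, and its value depends on how reads were divided between copies. Groups of 3 libraries were not tested for outlying samples.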

How the results depend on the processing

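The comparison of day 7 with day 3 (5208 genes called) gave 5155 genes under TMM, 5234 under RLE, 5226 without a filter, 4656 with at least 5 CPM, 5233 with DESeq2 and 5342 from days 3 and 7 alone. It gave 2402 at a threshold of 0.01, 3117 with WT#20D-17 added, 943 with all 5 days in the fit, and between 1808 and 6409 with 1 line left out. Without the replicate block, which pairs the days by line, 365 genes were called, all of them among the 5208. For day 5 against day 3 (6 genes) the count was 0 at 0.01, 18 under TMM, 563 without a filter, 674 with DESeq2, 0 without the block, 1 with WT#20D-17, 0 with all days, 1 to 3861 with 1 line left out, and 2347 without the day 5 library of WT#1-4. For day 7 against day 5 (44 genes) it was 0, 75, 1306, 1351, 0, 0 and 0 in the same order, 0 to 360 with 1 line left out and 15 without that library.

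For the difference between genotypes over the whole step (105 genes), 7 were called at 0.01, 746 without a filter, and 0 without the block, with WT#20D-17 or with all days. From day 3 to day 5 (559) these counts were 25, 1516, 0, 0 and 0. From day 5 to day 7 (1581) they were 334 at 0.01, 797 with DESeq2 and 0 without the block, with WT#20D-17 or with all days. Leaving out a line could not be fitted here. The fits that gave 0 genes had between 382 and 3779 at an unadjusted p under 0.05. The cause of these changes was not tested.

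With 1 line left out, list medians were 0.28 to 0.59 for endoderm, 0.15 to 0.82 for endothelium, 0.41 to 0.83 for neural crest, -0.0045 to 0.26 for interstitial matrix, -0.40 to 0.43 for trophoblast, -0.0065 to 0.66 for the RT-PCR genes, -0.31 to 0.45 for primitive streak, 0.064 to 0.56 for primitive blood, -0.17 to 0.17 for epiblast, -0.12 to 0.070 for Hox, -0.27 to 0.032 for Wnt, 0.033 to 0.29 for Nodal and BMP, 0.10 to 0.57 for IGF, -0.072 to 0.43 for NADPH oxidases and 0.24 to 0.36 for cell cycle inhibitors. The neural crest median was 0.73 under TMM and 0.66 without the day 5 library of WT#1-4, beside 0.74.

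Of the named genes, Hbb-y alone was called and turned its direction, to 0.60 with WT#20D-17. The others that turned had not been called. With WT#20D-17, Eomes was at -0.27, Otx2 at -0.51, Zic1 at 0.091, Gsta4 at -0.44 and Pou5f1 at -0.61. With 1 line left out, Gata4 ranged from -0.46 to 2.23, Klf5 from -0.39 to 0.14, Eomes from -0.0065 to 0.92, Otx2 from -0.28 to 1.16, Gsta4 from -0.40 to 0.66, Agap1 from -0.033 to 0.80, Rps2-ps10 from -0.64 to 0.094, Sox2 from -0.85 to 0.010 and Pou5f1 from -0.068 to 0.095. Gsta4 was at -0.000538 under RLE, -0.047 without a filter, -0.013 with DESeq2, -0.036 with all days, -0.0063 from days 3 and 7 alone and -0.0037 without the day 5 library of WT#1-4. Pou5f1 was at -0.000489 under RLE, -0.000493 with DESeq2 and at -0.048 without a filter. Without the block, 115 of 146 named genes lost their call and kept their direction.

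With 1 library per line and day, the calls rest on 3 lines, 2 of them of 1 genotype. At this depth 3 counts correspond to at most 0.145 CPM, and levels under that cannot be told from 0.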
